A study of Rattus norvegicus with 233 samples.

Results

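A53, A59 and A82 are 3 of the 84 assays of a real-time PCR panel that was run on 233 single rat hepatocytes. They were taken as a set because their relative levels were among the most increased at 24 h after partial hepatectomy on the control or the ethanol diet. The levels at 0 h and 24 h chose them, so those differences are given as a description and carry no test. The deposited table and the labels pair no assay number with a gene. No function, sequence or pathway can therefore be given for the 3 transcripts, and the hepatocyte label could not be checked against marker genes.

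The hepatocytes (Rattus norvegicus) were captured by laser microdissection from liver of rats kept on the Lieber-De Carli regimen, a liquid diet used for chronic ethanol feeding. Cells were labelled by diet, Carbohydrate (called control here) or Ethanol, and by time after resection. There were 69 control and 55 ethanol cells at 0 h, and 55 control and 54 ethanol cells at 24 h. The labels state no strain, sex, age, length of feeding or number of animals, and they link cells to groups but not to animals, so a group was treated as a single sample. No p-value was computed, differences between groups have no replicate check, and SDs and intervals describe spread and counting error over cells only.

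Partial hepatectomy removes part of the liver, and the remaining hepatocytes, which are mostly quiescent in the adult, leave quiescence and enter the cell cycle while continuing metabolic work. Single-cell measurements separate a change in the number of cells with a transcript from a change in its amount per cell. Chronic ethanol is known to impair liver regeneration in rodents.

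The values were read as cycle thresholds (Ct), the cycle at which a product crosses detection, so that more template gives a lower Ct and 1 cycle is a doubling if amplification is complete. The sources used here do not name the unit. The reading rests on the PCR protocol and on values that all lie under the 30 cycles run, and every direction given below depends on it. Assays and cells with fewer values had higher ones, with a Spearman rho between the number with a value and the median value of -0.41 over the 84 assays and -0.76 over the 233 cells, which is the direction a Ct would have. Where the table gives NULL, the transcript was below detection or the reaction failed, which the table does not separate. The relative level used below is the cell's median Ct over 28 common assays (present in 80% or more of the cells of every group) minus the assay's Ct. It is on a log2 scale, 0 is the cell's own common-assay median, and a higher value means more transcript. None of A53, A59 and A82 is among the 28. The groups differed in how much of the panel gave a value: of the 81 other assays, the median cell had 53 in 0 h control cells, 68 in 24 h control cells, 61 in 0 h ethanol cells and 68.5 in 24 h ethanol cells. The common-assay median Ct was 14.5, 13.3, 13.6 and 13.1 in the same order. Their part in the results was not tested, and values within ranges of the other assays are given beside them.

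In the cells that gave a value, each of the 3 assays was higher 24 h after resection than at 0 h, whichever the diet. On the control diet A82 and A59 were also found in many more cells at 24 h, by 61.2 and 44.5 points. On the ethanol diet they were 28.8 and 19.3 points higher, and the A59 intervals of the 2 times overlapped. A53 already had a value in most cells at 0 h and differed mainly in its level. Ethanol cells at 24 h had less A59 than 24 h control cells, relative to their other transcripts, and A82 leaned the same way. The 24 h levels had entered the choice of the assays. The 3 assays came together in the same cell far more often at 24 h, at or somewhat above the number their separate shares give.

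**Figure D1:**
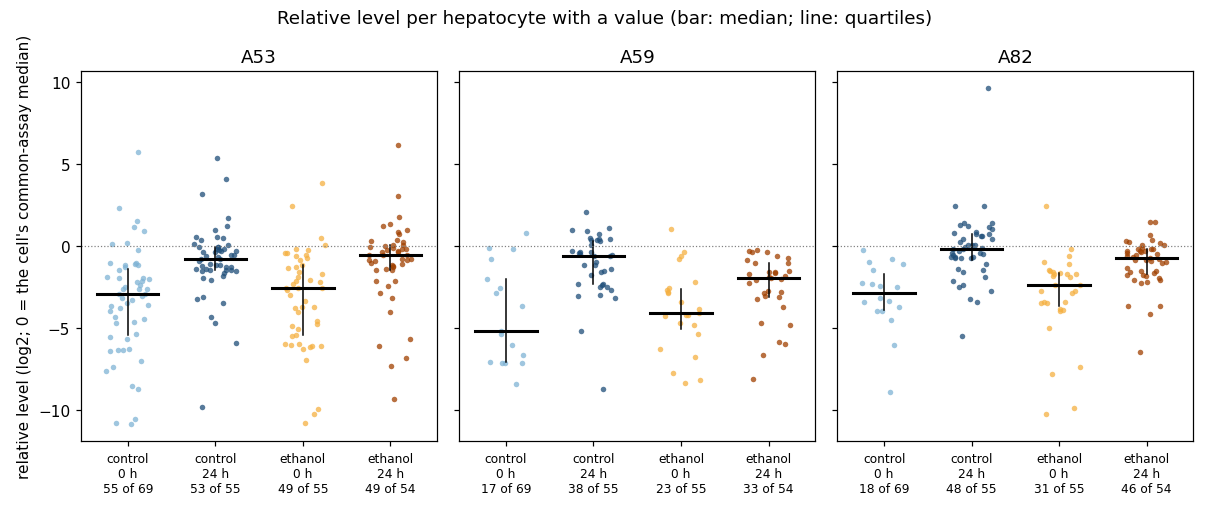
Relative level (log2; 0 is the cell's common-assay median) of A53, A59 and A82 in every hepatocyte with a value, by diet and time; bars are medians, vertical lines span the quartiles, and the numbers under each group are cells with a value of all cells. The 24 h medians lie above the 0 h medians of the same diet for each assay, and the long lower tail of A53 at 0 h is thinner at 24 h.

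A82 showed the clearest separation of the times. In 0 h control cells its relative level ran from -8.92 through a median of -2.87 to -0.24 in the 18 cells with a value. At 24 h it ran from -5.53 through -0.19 to 9.62 in 48 cells. None of the 18 cells at 0 h exceeded the 24 h median, while 45 of the 48 cells at 24 h (93.8%) exceeded the 0 h median. The mean went from -3.08 ± 2.07 (SD, n = 18) to -0.20 ± 2.10 (SD, n = 48), a difference of 2.88. The top cell at 24 h stood well apart, since the next one was at 2.41, and without it the 24 h mean was -0.41 ± 1.54 (SD). In ethanol cells the range at 0 h was -10.3 to 2.42 around a median of -2.40 (31 cells), and at 24 h -6.46 to 1.47 around -0.77 (46 cells). Here 3 of 31 cells at 0 h lay above the 24 h median, and 42 of 46 at 24 h (91.3%) lay above the 0 h median. The means were -3.06 ± 2.68 (SD, n = 31) and -1.05 ± 1.44 (SD, n = 46), which differ by 2.01. The difference on the ethanol diet depended on weak signals: 6 of its 31 values at 0 h and 1 of 46 at 24 h were above Ct 20. With those treated as missing it was 1.12, and 0.93, below a size of 1, when they were also counted as Ct 30 in the scaling.

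In unscaled Ct the same separation appeared, with a median for A82 of 16.3 (quartiles 15.6 and 17.5) in 0 h control cells and 13.4 (12.3 and 14.1) at 24 h. In ethanol cells the median Ct was 15.6 (14.3 and 17.0) at 0 h and 13.8 (12.7 and 14.9) at 24 h. The interquartile ranges of the times did not overlap on the control diet and overlapped on the ethanol diet. Without scaling the panel as a whole was also higher at 24 h. The median difference over all assays compared was 0.69 in control and 0.82 in ethanol cells, beside 3.09 and 2.45 for A82.

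A59 had the largest difference on the control diet and the fewest cells with a value. At 0 h its relative level in control cells spread from -8.45 to 0.79 with a median of -5.17 (17 cells). At 24 h it spread from -8.70 to 2.03 with a median of -0.62 (38 cells), and 36 of the 38 cells (94.7%) lay above the 0 h median. The mean moved from -4.22 ± 2.98 (SD, n = 17) to -1.14 ± 1.97 (SD, n = 38), by 3.08, or by 4.55 when medians were compared. In ethanol cells the median was -4.09 at 0 h (23 cells, -8.37 to 1.04) and -1.97 at 24 h (33 cells, -8.13 to -0.25). The ethanol means, -3.93 ± 2.50 (SD, n = 23) and -2.53 ± 1.97 (SD, n = 33), were 1.40 apart. The difference was larger as medians (2.11), as upper quartiles over all cells (2.53) and with NULL entered at Ct 30 (2.89). It was smaller, at 1.11, with scaling to only the assays with a value in at least 90% of cells of every group. With values above Ct 20 missing it was 1.18. The full ranges of the times overlapped on both diets.

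A53 was the assay of the 3 that most cells gave. In control cells its median was -2.93 at 0 h (55 cells, -10.9 to 5.68) and -0.81 at 24 h (53 cells, -9.80 to 5.37), with means of -3.41 ± 3.28 (SD, n = 55) and -0.92 ± 2.25 (SD, n = 53). In ethanol cells the median was -2.59 at 0 h (49 cells, -10.8 to 3.82) and -0.59 at 24 h (49 cells, -9.33 to 6.14), with means of -3.23 ± 3.01 (SD, n = 49) and -1.09 ± 2.59 (SD, n = 49). The differences of means were 2.49 and 2.14. Over all cells with a value they were close in the 2 diets. Single cells overlapped widely: 8 of 55 control and 9 of 49 ethanol cells at 0 h exceeded the 24 h median of their diet. With values above Ct 20 treated as missing, which removes 12 control values at 0 h and 4 at 24 h, the control difference was 1.52. The ethanol difference was then 1.86. With NULL entered at Ct 30 the diets were no longer close, at 4.44 on control and 2.17 on ethanol. In cells with a value for at least 1 of A05, A11, A29, A56 and A66 they were at 2.76 and 1.68. Between the upper quartiles over all cells the differences were 1.87 and 1.28.

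The lower tail of A53 was thinner at 24 h. Cells with a value lay more than 5 below their common-assay median in 27.3% of cases in 0 h control cells (15 of 55) and in 3.77% at 24 h (2 of 53). On the ethanol diet this was 28.6% (14 of 49) and 10.2% (5 of 49). The interquartile range of A53 over cells was 4.06 at 0 h and 1.42 at 24 h in control cells, and 4.22 and 1.50 in ethanol cells. Narrower ranges at 24 h were common over the panel, in 55 of 80 assays for control and 56 of 81 for ethanol cells, with median differences of -0.28 and -0.39. The A53 differences of -2.64 and -2.72 were the 3rd and 1st from the lowest. For A59 the interquartile range differed by -2.38 in control and -0.38 in ethanol cells, and for A82 by -0.66 and -0.47.

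A difference of at least 1 upward at 24 h was reached by 22 of 80 assays (27.5%) in control cells and by 10 of 81 (12.3%) in ethanol cells. All 3 chosen assays are among them in both comparisons, and their choice fixes this. A59, A82 and A53 ranked 1, 2 and 5 of 80 in control cells, and A53, A82 and A59 ranked 1, 2 and 5 of 81 in ethanol cells. The assay ranked next below A53 on the control diet was at 2.45, and the one next below A59 on the ethanol diet at 1.13. Over all assays compared the median was 0.23 for control and 0.06 for ethanol cells. When scaling used only the 12 assays with a value in at least 90% of cells of every group, that control median became -0.74 and the control differences of A53, A59 and A82 became 1.57, 1.93 and 2.06. Relative to the median of all assays they were then 2.31, 2.66 and 2.80, against 2.26, 2.84 and 2.65 with the 28 assays.

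**Figure D2:**
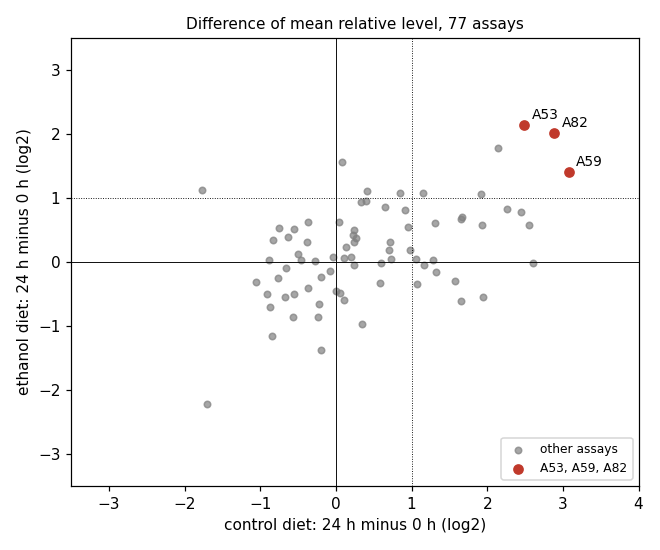
Difference of mean relative level between 24 h and 0 h (log2) on the control diet (horizontal) and the ethanol diet (vertical) for the 77 assays compared on both; dotted lines mark a difference of 1. A53, A59 and A82, which were chosen by these differences, lie at the upper right, at 2.49, 3.08 and 2.88 across and 2.14, 1.40 and 2.01 up.

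How many cells gave a value was not used in choosing the assays by level, although both come from the same cells. A82 had a value in 26.1% of 0 h control cells (18 of 69, exact Clopper-Pearson 95% interval from 16.3% to 38.1%), and at 24 h in 87.3% (48 of 55, from 75.5% to 94.7%). In ethanol cells it was 56.4% (31 of 55, 42.3% to 69.7%) and 85.2% (46 of 54, 72.9% to 93.4%). The intervals of the 2 times do not overlap on either diet. A59 had a value in 24.6% of 0 h control cells (17 of 69, 15.1% to 36.5%) and 69.1% at 24 h (38 of 55, 55.2% to 80.9%), intervals that again lie apart. In ethanol cells it had one in 41.8% (23 of 55, 28.7% to 55.9%) and 61.1% (33 of 54, 46.9% to 74.1%), and these intervals overlap. A53 had a value in 79.7% of 0 h control cells (55 of 69, 68.3% to 88.4%) and 96.4% at 24 h (53 of 55, 87.5% to 99.6%). In ethanol cells the A53 shares were 89.1% (49 of 55, 77.8% to 95.9%) and 90.7% (49 of 54, 79.7% to 96.9%), a difference of 1.65 points.

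**Figure D3:**
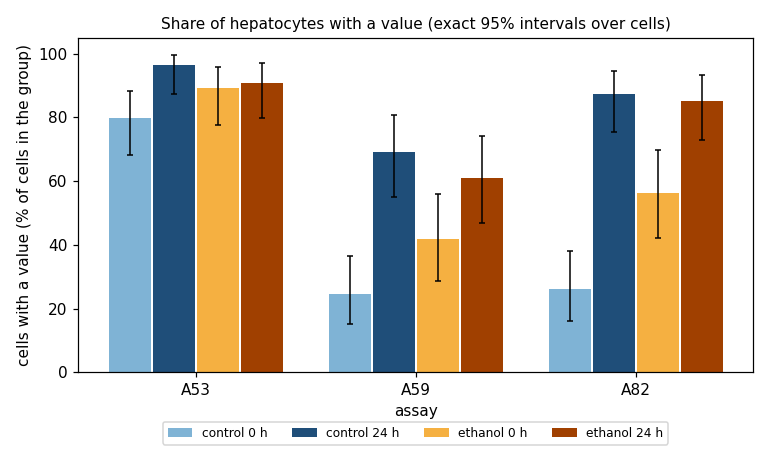
Share of cells with a value (percent of the group's cells) for A53, A59 and A82 in the 4 groups; error bars are exact 95% intervals over cells. A82 goes from 26.1% to 87.3% in control cells and from 56.4% to 85.2% in ethanol cells, while A53 is at 79.7% or more in every group.

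Set beside the panel, 24 of 84 assays (28.6%) had a share higher by at least 20 points at 24 h in control cells, and 15 of 84 (17.9%) in ethanol cells. The median differences were 9.75 and 8.45 points. A82 was 61.2 points higher on the control diet, the second largest difference of 84 after one of 61.5 points, and 28.8 points higher on the ethanol diet, the 6th. A59 was 44.5 points higher (11th) and 19.3 points higher (18th). A53 was 16.7 points higher (29th) and 1.65 points higher (61st), so its share did not stand out on the ethanol diet.

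Cells that lacked one of the 3 assays also lacked more of the rest of the panel. Control cells at 0 h with A82 had a median of 61 of the 81 other assays, against 50 in those without, and at 24 h the medians were 69 and 52. For ethanol cells the medians with and without A82 were 66 and 52 at 0 h and 69 and 49.5 at 24 h. A59 gave 60 and 50 in 0 h control cells, 69 and 62 in 24 h control cells, 66 and 57 in 0 h ethanol cells and 70 and 61 in 24 h ethanol cells. The common-assay median Ct of 0 h control cells was 13.5 with A82 and 14.7 without it. The shares were therefore also read within 3 ranges of the other assays: under 50, 50 to 64, and 65 and more.

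Within the middle range, where control cells are best represented at both times, A82 had a value in 23.5% of 0 h control cells (8 of 34, interval from 10.7% to 41.2%), and at 24 h in 75.0% (9 of 12, from 42.8% to 94.5%). A59 had one in 26.5% (9 of 34, 12.9% to 44.4%) and 66.7% (8 of 12, 34.9% to 90.1%). The gain in cells with A82 on the control diet was thus 51.5 points at a like number of other assays, and that of A59 40.2 points, although the A59 intervals overlap. For A53 the same cells gave 76.5% (26 of 34) and 83.3% (10 of 12), while ethanol cells of this range went the other way, from 89.5% (17 of 19, 66.9% to 98.7%) at 0 h to 60.0% (6 of 10, 26.2% to 87.8%) at 24 h, with overlapping intervals.

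In cells with 65 or more other assays the shares were high throughout and the gaps smaller. At 0 h A82 was in 6 of 8 control cells (75.0%) and 18 of 23 ethanol cells (78.3%), and at 24 h in 36 of 37 (97.3%) and 39 of 39. A59 was in 5 of 8 (62.5%) and 29 of 37 (78.4%) control cells, and in 14 of 23 (60.9%) and 30 of 39 (76.9%) ethanol cells. The intervals of the 2 times overlapped for both assays in this range on both diets. In ethanol cells with 50 to 64 other assays A82 was in 10 of 19 at 0 h (52.6%) and 6 of 10 at 24 h (60.0%), and A59 in 6 of 19 (31.6%) and 2 of 10 (20.0%), so the higher share at 24 h on the ethanol diet was not seen for A59 there. Under 50 other assays, 6 control cells and 5 ethanol cells remained at 24 h, too few to compare.

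**Figure D4:**
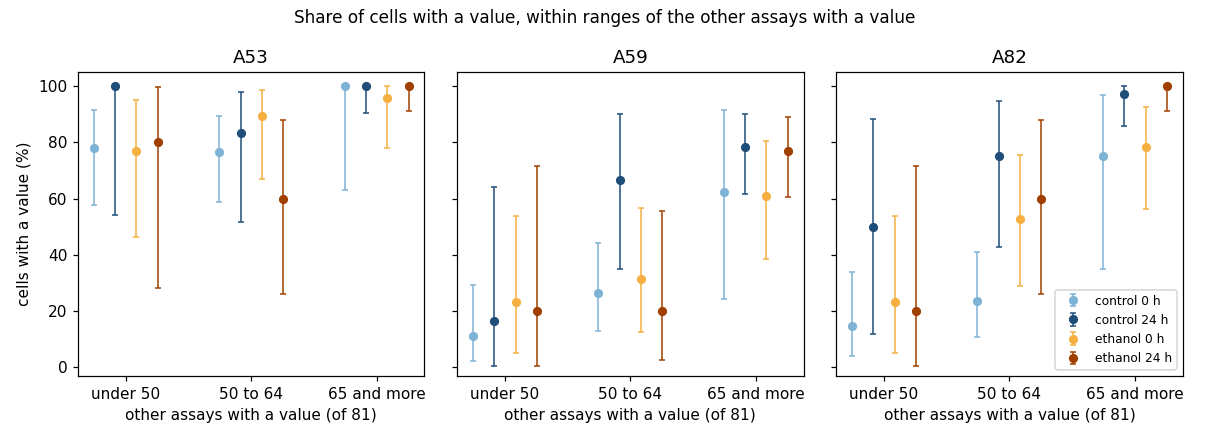
Share of cells with a value for A53, A59 and A82 (percent) within 3 ranges of the number of other assays with a value per cell (of 81), by group; bars are exact 95% intervals over cells. For A82 in control cells with 50 to 64 other assays the share is 23.5% at 0 h and 75.0% at 24 h, and in every group the shares of A59 and A82 are highest at 65 and more.

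Levels within these ranges could be compared where at least 10 cells had a value at both times. In ethanol cells with 65 or more other assays A53 was at -3.43 ± 2.54 (SD, n = 22) at 0 h and -0.82 ± 1.68 (SD, n = 39) at 24 h, a difference of 2.62. A59 was at -4.34 ± 2.13 (SD, n = 14) and -2.33 ± 1.85 (SD, n = 30), a difference of 2.02, and A82 at -2.89 ± 2.45 (SD, n = 18) and -1.10 ± 1.48 (SD, n = 39), a difference of 1.79. In control cells with 50 to 64 other assays A53 was at -4.31 ± 3.36 (SD, n = 26) and -1.10 ± 2.86 (SD, n = 10), a difference of 3.21. These within-range differences were all above 1, in the same contrast of times that chose the assays. On the control diet A59 and A82 had too few cells with a value for such a comparison in any range.

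Diet was compared at each time. Diet and animal cannot be told apart in these groups. At 0 h the levels in cells with a value differed by 0.18 for A53, 0.29 for A59 and 0.02 for A82 (ethanol minus control), all far under the SDs over cells, beside a median of 0.10 over the 77 assays compared. None was among the 13 assays (16.9%) higher by at least 1. With NULL entered at Ct 30, which lets the share of cells count toward the level, they were 1.27, 2.10 and 4.01, beside a median of 1.23 over 84 assays, 46 of them higher by at least 1. The direction of the small differences in cells with a value turned under other scalings. With scaling to the 12 assays they were -0.36, -0.50 and -0.47, beside a median of -0.45 over the 77 assays. With medians over cells A59 differed by 1.08.

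The shares differed more than the levels at 0 h. The share with A82 was 30.3 points higher in ethanol than in control cells (56.4% against 26.1%), the 6th largest of 84, and its intervals lie apart. At least 20 points separated the diets for 13 of 84 assays (15.5%). Among cells with 50 to 64 other assays A82 was in 52.6% of ethanol cells (10 of 19, 28.9% to 75.6%) and 23.5% of control cells (8 of 34, 10.7% to 41.2%), and these intervals overlap. A59 was in 17.2 points more of the ethanol cells and A53 in 9.38 points more.

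At 24 h A59 was lower in ethanol than in control cells. The 24 h levels of both diets entered the choice of the assays, so this comparison is not free of that choice. The difference of means was -1.39, from -1.14 ± 1.97 (SD, n = 38) in control to -2.53 ± 1.97 (SD, n = 33) in ethanol cells. It was one of 5 assays of 84 (5.95%) lower by at least 1, the third from the bottom, beside a median of -0.03 for all assays. Of the 33 ethanol cells with A59, 4 lay above the control median of -0.62. Without scaling the difference was -0.66, and the median over all assays 0.56, so that A59 was 1.22 under that median. A82 differed by -0.85, the 78th of 84 in order from the top, and 12 of 46 ethanol cells lay above the control median. A53 differed by -0.17 and 25 of 49 ethanol cells lay above the control median.

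The upper end of the distributions showed the same contrast. A59 reached or exceeded the cell's own common-assay median at 24 h in 12 of 55 control cells (21.8%, interval from 11.8% to 35.0%) and in 0 of 54 ethanol cells (exact upper limit 6.60%, or 5.56% at 3 counts of the total). At 0 h this was so in 1 of 69 control and 1 of 55 ethanol cells. At 24 h A82 did so in 21 of 55 control cells (38.2%, 25.4% to 52.3%) and 9 of 54 ethanol cells (16.7%, 7.92% to 29.3%), after 0 of 69 (exact upper limit 5.21%, or 4.35% at 3 counts) and 1 of 55 at 0 h. A53 did so in 12 of 55 (21.8%) and 13 of 54 (24.1%) cells at 24 h, and in 7 of 69 and 4 of 55 at 0 h. Over the 84 assays the share of cells at or above 0 differed between the diets at 24 h by a median of 0.02 points. The differences of -21.8 points for A59 and -21.5 for A82 were the 3rd and 4th lowest. Counting cells with at least one of the 3 assays at or above 0 gave, at 24 h, 36 of 55 control cells (65.5%, 51.4% to 77.8%) and 17 of 54 ethanol cells (31.5%, 19.5% to 45.6%), against 7 of 69 and 5 of 55 at 0 h. This count reuses the levels above and adds no further contrast, and no like count was made for other assays. The 24 h control median of A82, -0.19, lay close to the cut of 0.

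Subtracting the control time difference from the ethanol one gave -1.68 for A59 (1.40 on ethanol against 3.08 on control), -0.87 for A82 and -0.35 for A53, beside a median of -0.28 over 77 assays. A59 was one of 16 assays (20.8%) lower by at least 1 in this comparison. With scaling to the 12 assays A59 was at -0.82, under the size of 1, beside a median of 0.46 over the 77 assays. Relative to the median of all assays A59 was then at -1.28, against -1.40 with the main scaling. The time differences that chose the assays enter this contrast, so it is not independent of their choice. It was not tested.

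Ct differences between 2 of the assays within the same cell need no scaling. In cells with both, the Ct of A53 minus that of A59 had a median of 0.47 (quartiles -1.23 and 1.27, 38 cells) in 24 h control cells and -1.56 (-2.38 and -0.61, 31 cells) in 24 h ethanol cells. A53 thus had the lower Ct in 16 of 38 control and 25 of 31 ethanol cells. At 0 h the medians were -0.07 (14 cells) and -1.08 (21 cells). The Ct of A59 minus that of A82 went from 3.52 (quartiles 1.12 and 4.05, 8 cells) in 0 h control cells to 0.70 (-0.37 and 1.61, 35 cells) at 24 h, and from 1.87 (0.48 and 2.72, 14 cells) to 0.99 (0.23 and 1.88, 32 cells) in ethanol cells. The Ct of A53 minus that of A82 had medians of 0.62 (quartiles -1.31 and 1.37, 17 cells) in 0 h and 0.73 (-0.36 and 1.73, 47 cells) in 24 h control cells. In ethanol cells they were -0.0040 (-1.20 and 1.90, 30 cells) at 0 h and 0.02 (-0.98 and 0.88, 43 cells) at 24 h. These medians differed less between the times than between the diets. Primer efficiencies of the assays are not known, so the sign of such a difference does not rank the 2 transcripts, while its shift between groups compares them.

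Whether the same cells carried the 3 assays was read from the cells with a value. All 3 were present in 10.1% of 0 h control cells (7 of 69, interval from 4.18% to 19.8%) and, at 24 h, in 63.6% (35 of 55, from 49.6% to 76.2%). In ethanol cells they were present in 25.5% (14 of 55, 14.7% to 39.0%) and 55.6% (30 of 54, 41.4% to 69.1%). None of the 3 was present in 11 control cells at 0 h and 1 at 24 h, and in 3 and 2 ethanol cells. The most frequent pattern at 0 h in control cells was A53 alone, in 31 of 69 cells, and in ethanol cells A53 with A82, in 16 of 55. At 24 h all 3 together was the most frequent on both diets.

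**Figure D5:**
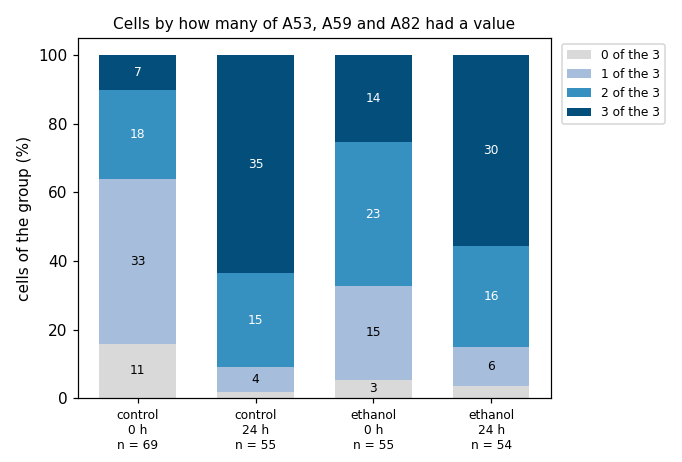
Percent of cells in each group with a value for 0, 1, 2 or 3 of A53, A59 and A82; numbers in the bars are cells. Cells with all 3 make up 7 of 69 control cells at 0 h and 35 of 55 at 24 h, and 14 of 55 and 30 of 54 ethanol cells.

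A53 had a value in most cells of every group, so most cells with A82 or A59 had it too. In the order control 0 h, control 24 h, ethanol 0 h and ethanol 24 h, 94.4%, 97.9%, 96.8% and 93.5% of cells with A82 also had A53, as did 82.4%, 100%, 91.3% and 93.9% of cells with A59, beside A53 shares over all cells of 79.7%, 96.4%, 89.1% and 90.7%. The counts of cells with A53 and A59 were 14, 38, 21 and 31, against 13.6, 36.6, 20.5 and 29.9 if unrelated, and those with A53 and A82 were 17, 47, 30 and 43, against 14.3, 46.3, 27.6 and 41.7. Of cells with A53, 30.9%, 88.7%, 61.2% and 87.8% had A82. At 0 h A59 and A82 shared 8 control cells, 47.1% of those with A59 and 44.4% of those with A82. At 24 h they shared 35 control cells, 92.1% and 72.9%. In ethanol cells they shared 14 at 0 h (60.9% and 45.2%) and 32 at 24 h (97.0% and 69.6%). At 24 h nearly every cell with A59 thus had A82, while 13 control and 14 ethanol cells had A82 without A59.

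If the 3 were spread over the cells of a group without regard to each other, 3.54, 32.0, 11.5 and 25.5 cells would hold all 3, against the 7, 35, 14 and 30 counted. For A59 and A82 the counts with both were 8 against 4.43 in 0 h control cells, 35 against 33.2 at 24 h, 14 against 13.0 in 0 h ethanol cells and 32 against 28.1 at 24 h. Each count was above its unrelated number. Among cells with 65 or more other assays the excess was gone or turned: all 3 were in 3, 28, 10 and 30 cells, against 3.75, 28.2, 10.5 and 30.0. In that range A53 and A82 were in all 39 ethanol cells at 24 h, so the count there is that of A59. With 50 to 64 other assays, all 3 were in 4, 6, 4 and 0 cells, against 1.62, 5.00, 2.83 and 0.72, so that the 24 h ethanol cells had fewer and the other groups more. In that range A59 and A82 were together in 5, 6, 4 and 2 cells, against 2.12, 6.00, 3.16 and 1.20. The phi coefficient of presence, which is 0 for unrelated and 1 for identical cells, was 0.27 for A59 with A82 in 0 h control cells and 0.42 in 24 h ethanol cells. Its median over all pairs of assays was 0.08 and 0.15 in those groups, and 88.3% and 88.7% of pairs lay lower. In the remaining groups, and for the other pairs of the 3 in any group, between 37.7% and 80.8% of pairs lay lower.

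Among cells with both, the relative levels of all 3 pairs went together in 24 h ethanol cells. Spearman's rho there was 0.51 for A53 with A82 (43 cells), 0.44 for A53 with A59 (31 cells) and 0.42 for A59 with A82 (32 cells), beside a median of 0.06 over all 3481 pairs of assays, of which 96.0%, 92.3% and 91.5% lay lower. In 24 h control cells it was 0.05 (47 cells), -0.01 (38 cells) and 0.41 (35 cells) in the same order of pairs. At 0 h rho was 0.13, 0.46 and 0.05 in control cells (17, 14 and 8 cells) and 0.22, 0.16 and -0.01 in ethanol cells (30, 21 and 14 cells). These correlations describe cells of 1 sample that share the cell's common-assay median, and whether A53 followed the other two differently on the 2 diets was not tested.

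At 0 h the median of A59 was lower in cells with all 3 assays than in other cells with A59, which lacked A53, A82 or both. The medians were -7.13 (7 cells) against -2.85 (10 cells) in control cells and -4.14 (14 cells) against -2.60 (9 cells) in ethanol cells. The means were -6.06 and -2.93 in control cells, but -4.14 ± 1.87 (SD) and -3.59 ± 3.35 (SD) in ethanol cells. Groups of 7 and 9 cells are under the minimum of 10 used for comparisons. Over 0 h cells with A59, rho of its level with the number of other assays was -0.27 in control and -0.31 in ethanol cells. Its part here was not tested. At 24 h the order of the medians was the opposite, at -0.61 (35 cells) against -1.01 (3 cells) in control cells. In ethanol cells it was -1.85 (30 cells) against -5.84 (3 cells). Too few cells lacked the others at 24 h to compare.

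Other assays followed each of the 3 over cells more closely than the 3 followed one another. After subtraction of group means, A53 was closest to A46 (rho 0.42, 202 cells) and A38 (0.41, 121 cells), beside a median of 0.14 over the 81 assays ranked, while A59 and A82 came 21st and 26th. A59 was closest to A27 (0.45, 101 cells) and A37 (0.45, 99 cells) among 75 assays with a median of 0.12, with A82 at 8th (0.31, 89 cells). A82 was closest to A05 (0.53, 110 cells) and A55 (0.49, 141 cells) among 79 assays with a median of 0.14, with A59 at 18th. A46 and A55 are among the 28 common assays that set the scale. A05 differed by 2.26 between 24 h and 0 h on the control diet and by 0.83 on the ethanol diet, and A46 by 2.60 and -0.01, so that close likeness over cells did not go with a like difference between times on both diets.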

How the data were processed

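The authors deposited 1 table, not normalized per the file's name, whose values were read here as Ct, on a log2 scale, with 84 assays and 233 cells. Per the labels' protocols, lysates of single cells were reverse transcribed, pre-amplified for 22 cycles and measured with SYBR Green for 30 cycles. The table ranges from Ct 2.5 to 25.9, and 26.1% of 19572 entries are NULL. What software set the Ct, how a NULL was called and whether a reference gene was measured is not given in the sources. Columns were matched to samples by description.

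Cells were scaled to their median Ct over 28 common assays, with a NULL as Ct 30 in that median. Means are over cells with a value, of which a comparison needed 10 per group. A count of assays took differences of at least 1 on the log2 scale, or 20 points for shares. Neighbouring assays were the 2 with the highest rho over at least 60 cells. Python 3.11.15, numpy 2.4.6, pandas 2.3.3 and scipy 1.17.1 were used, and the calculation was tested on simulated data. The simulation removed values at random, without regard to level or group, so it does not cover missing values that follow Ct. The members, lists and settings were chosen with earlier results of these data known.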

Additional observations from a re-analysis of the deposited data

How the results depend on the processing

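A53, A59 and A82 were chosen by their 24 h minus 0 h differences, and the alternatives reprocess the same cells. The signs of these differences are therefore no independent check. On both diets the differences stayed positive in all 79 values from the alternatives that gave one, and at 1 or above in 78. The exception was A82 on the ethanol diet, at 0.93 with values above Ct 20 missing and counted as Ct 30 in the scaling, an alternative chosen after seeing the data, as were those with the upper quartile, with trimmed groups and with common assays chosen again under the Ct limit. With NULL entered at Ct 30, the share of cells counts toward the level. A59 then differed by 7.22 on the control diet, and A82 by 10.3 on the control and 5.20 on the ethanol diet. A82 differed by 4.01 between diets at 0 h. The difference between diets in the time difference was -4.32 for A59, -5.12 for A82 and -2.26 for A53. With the upper quartile over all cells, a NULL ranked lowest, the control differences were 8.09 for A59 and 6.63 for A82, the diet differences at 0 h 4.21 and 4.16, and the differences between diets in the time difference -5.55 and -5.06. Scaling to 12 assays moved the median of all assays as given above.

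Among cells with at least 60 assays, the share of A53 was lower at 24 h on the control diet (-2.27 points) and higher by 0.705 on the ethanol diet. There A59 differed by 25.0 and 14.5 points, A82 by 45.5 and 18.9, and all 3 together by 38.6 and 27.3. These cells have more of the panel by construction. With values above Ct 20 missing, A53 differed by 26.8 points on the control diet, and all 3 together by 53.5, from 2.90% to 56.4% of cells. Numbers of assays higher by at least 1 at 24 h were 22 on the control and 10 on the ethanol diet, 9 and 5 with scaling to 12 assays, 32 and 32 without scaling, 56 and 43 with NULL at Ct 30, and 16 and 4 with values above Ct 20 missing. Between diets they were 13 higher at 0 h, 5 lower at 24 h and 16 lower in the time difference, against 21, 1 and 13 without scaling and 4, 6 and 7 with 12 assays. The cause of these shifts was not tested. Among the 51 cells lacking A05, A11, A29, A56 and A66, values could be had for A53 alone. They were 1.66 for 24 h minus 0 h on the control diet and 0.51 for ethanol minus control at 24 h. The latter was -0.17 over all cells, the opposite sign. Scaling without the 3 assays was not run, since none is among the common assays. The number of animals is not known, and the number of cells with a value, 17 to 55 per assay and group, limits precision. No paired analysis was possible because numbers in the titles only name cells within their group.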
